A study of Rattus norvegicus with 20 samples.

Results

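The first day of testis differentiation in the rat was followed here by comparing testes of embryonic day 14 (E14) with testes of embryonic day 13 (E13), with the arrays of both maternal treatments pooled. The members were the 8 arrays that the labels name as E14 testis or E13 testis collected in utero, of 20 arrays in the whole study. They fell into 4 groups of 2 arrays. The first was E14 testis of Sprague-Dawley dams injected with vinclozolin, a fungicide whose metabolites block the androgen receptor, and the second was E14 testis of dams injected with the dimethyl sulfoxide vehicle. The third was E13 testis of vinclozolin-injected dams and the fourth E13 testis of vehicle-injected dams. Injections were daily at 100 mg per kg per day of vinclozolin and ran over embryonic days 8 to 14, so the E13 and E14 litters were collected within the dosing period. The other arrays were 4 of E16 testis, used below as the next stage, and 8 of cultured testes, not used for these comparisons. Sex had been assigned by a PCR for Sry on tail DNA, and by the histology of testis cords at E14 and E16. Arrays of one group are labelled as biological replicates, with no animal, litter or pool named, so p-values measure the spread between these samples, which may be technical, and the labels do not say whether the mesonephros was removed from the in utero testes.

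In mammals the gonad starts out able to become either testis or ovary. In males the Y-linked gene Sry switches supporting cells to the Sertoli fate, and the new Sertoli cells gather into testis cords and secrete signals, among them anti-Mullerian hormone and desert hedgehog, to the cells around them. Cords are then enclosed by a basement membrane and peritubular cells, blood vessels are laid down between them, and fetal Leydig cells arise in the interstitium.

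Each value is an Affymetrix MAS5 signal, a linear intensity per probe set on arrays scaled to a common mean. A probe set was tested where, on 4 or more of the 8 arrays, its signal was no lower than the 40th percentile of all probe sets there, and differences are on the scale of log2(signal + 16), which understates the change of dim probe sets. A gene was called as risen or fallen where limma gave a Benjamini-Hochberg adjusted p under 0.05 over all tested probe sets. Where a call was lost with an array left out, the adjusted p no longer met this threshold, whatever the size of the difference. In whole testes a change in the signal of a cell type's genes can come from more cells of that type or from more RNA per cell, which cannot be told apart here.

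Several arrays stood apart from their group, and the counts of most lists below are also given with some arrays left out. Xist, the RNA made from the inactive X chromosome of female cells, read 32 and 489.9 in the vinclozolin pair and 174.9 and 184.4 in the vehicle pair at E14, against 896 and 17.9 in the vinclozolin pair and 758.6 and 20.4 in the vehicle pair at E13. Both E13 arrays numbered 1 were therefore high and both E13 arrays numbered 2 low, and the E14 arrays lay between them. Across all tested probe sets the E13 arrays numbered 1 correlated with each other at 0.988 and those numbered 2 at 0.979, above the 0.952 to 0.966 found within the 4 groups, although their labels differ in treatment. Other pairs of unlike treatment also lay above that range. E14 vehicle replicate 2 correlated with E14 vinclozolin replicates 2 and 1 at 0.975 and 0.972. E13 vehicle replicate 1 correlated with E13 vinclozolin replicate 2 at 0.969. The main fit counts the E13 arrays as 4 separate samples, so its adjusted p-values may be too small. The SDs given with n = 4 count them as separate too. The Y-linked gene Eif2s3y, a translation initiation factor subunit, read 902.6 and 1094.8 in the vinclozolin pair and 1237.5 and 1248.9 in the vehicle pair at E14, against 2912.9 and 3182.4 in the vinclozolin pair and 2363.1 and 2594.5 in the vehicle pair at E13. Its 4 E14 arrays lay below every E13 array, and it stood between 2364.2 and 3495.7 on the E16 arrays. Eif2s3y fell by 1.29 (SE 0.14, adjusted p = 0.00576) and the Y-linked demethylase gene Uty by 0.57 (SE 0.17, adjusted p = 0.0462). E14 vehicle replicate 1 differed from the other E14 arrays in several ways: the summed signal of the 22 Sertoli cell markers was 6745 there, against 15814 to 18831 on the other E14 arrays, and that of the 10 germ cell markers 589, against 1480 to 1562. On the same array the macrophage markers summed to 3385, against 1650 to 2033 on the other E14 arrays, and the immediate early genes to 14897, against 7524 to 7942. Fos, an immediate early transcription factor, read 1534.6 on it and 18.3 to 289.2 on the other E14 arrays. The part of these differences in the results below was not tested.

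**Figure D1:**
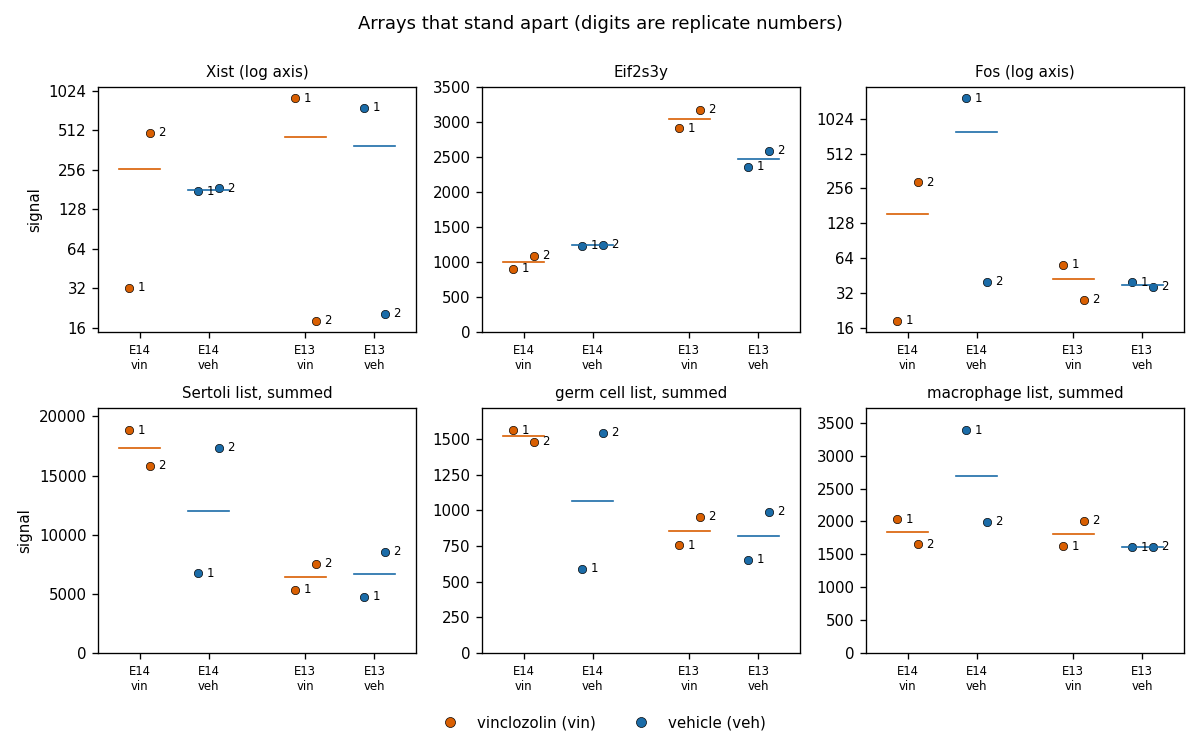
Signal of Xist, Eif2s3y and Fos and the summed signal of 3 marker lists on each E14 and E13 array, with vinclozolin (vin) and vehicle (veh) arrays apart. Points are arrays, digits their replicate numbers, and lines the mean of 2 arrays; Xist is high on the E13 arrays numbered 1 at 896 and 758.6, and E14 vehicle replicate 1 has the lowest Sertoli sum of the E14 arrays at 6745.

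Of 18921 tested probe sets, 1558 (8.23%) were higher and 1648 (8.71%) were lower at E14 than at E13. Most changes were small: the median change was 0.69 among the called rises and -0.71 among the called falls, with a median SE of 0.18 over all tested probe sets. A difference of at least 2-fold was reached by 215 of the rises and 208 of the falls, and at least 4-fold by 6 rises and 2 falls. Among the called probe sets the 4 E14 arrays did not overlap the 4 E13 arrays for 1422 rises and 1579 falls, while 26.5% of all tested probe sets did not overlap. The median difference of all tested probe sets was 0.073. The first principal component, with 43.5% of the variance, placed the E14 arrays at 18.8 to 51.4 and the E13 arrays at -35.4 to -28.4. The counts depended on single arrays: without E13 vinclozolin replicate 2 they were 57 and 55, and without both E13 arrays numbered 1 they were 956 and 634. Reading 1 probe set per gene, 1080 of 10487 genes rose and 939 fell, and 38 lists of genes grouped by cell type or function held 698 tested genes, of which 119 rose and 47 fell. Of 133 genes named below that were called, 34 kept the call whichever 1 array was left out; 34 kept it without E13 vinclozolin replicate 2, and 82 without both E13 arrays numbered 1. Without both E13 arrays numbered 1 the difference shrank by more than 1.5 times for 10 of the called genes: Amh and Tbx18, given below, Aldh1a1 at 1.01 (adjusted p = 0.0209), Enpep at 1.25 (adjusted p = 0.0205), Adra2b at 1.04 (adjusted p = 0.0855), Tsx at 0.92 (adjusted p = 0.0701), Aard at 0.71 (adjusted p = 0.166), Vnn1 at 0.65 (adjusted p = 0.16), Emilin1 at 0.57 (adjusted p = 0.0564) and Tet1 at -0.45 (adjusted p = 0.226).

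**Figure D2:**
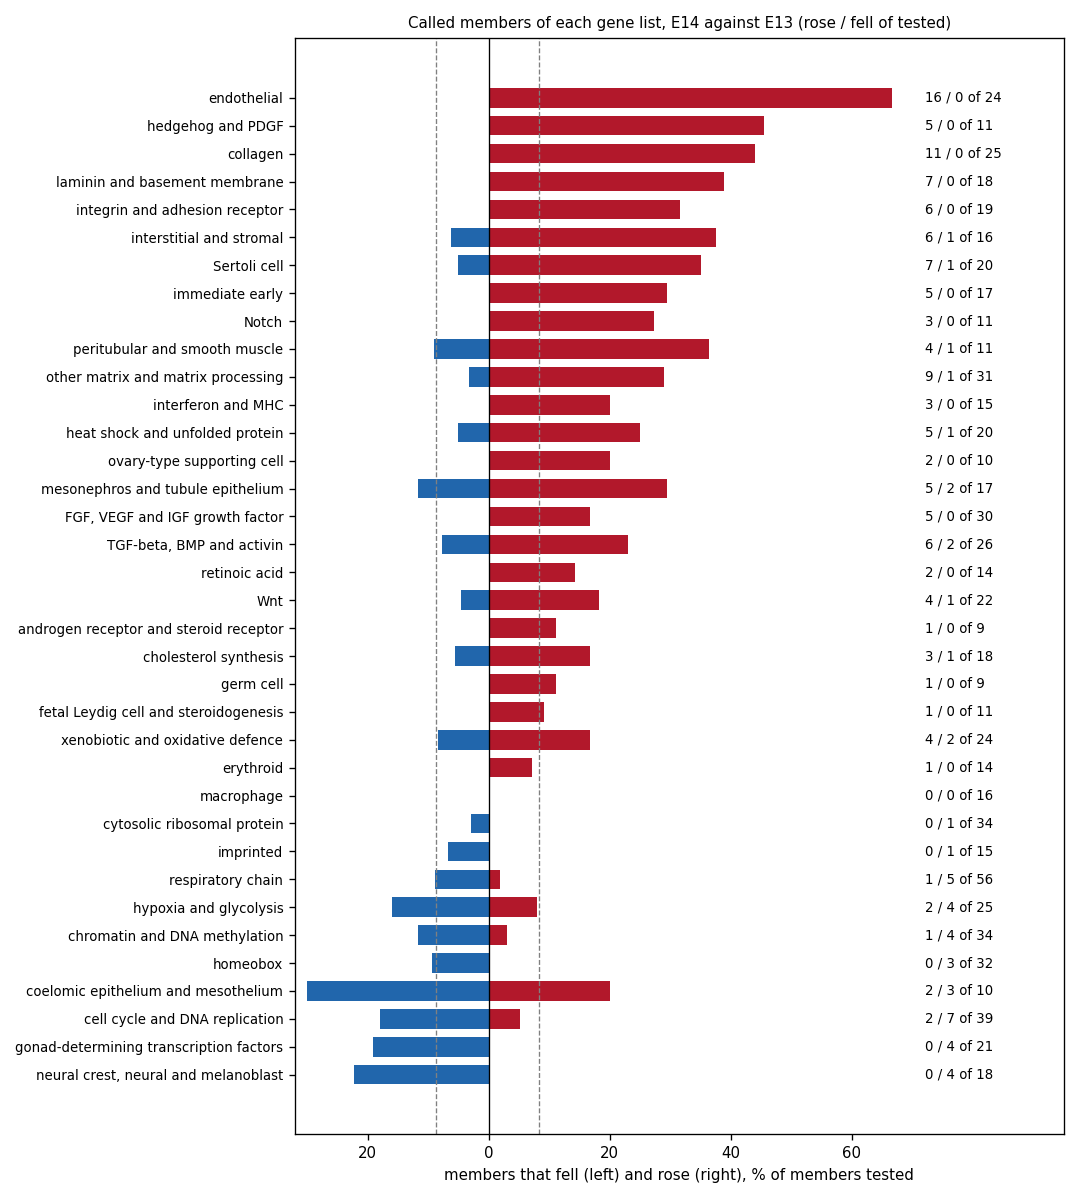
Share of the tested members of each gene list (lists with at least 9 tested members) that rose (right, red) or fell (left, blue) at E14 against E13, with the counts at the right edge. Dashed lines mark 8.23% and 8.71%, the shares of all tested probe sets that rose and fell; the endothelial list reaches furthest to the right with 16 of 24.

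Collagen VI chains and some Sertoli cell products were among the 20 largest rises at E14. Of 25 tested collagen genes 11 rose and 0 fell (median log2 difference 0.74; 0 fell at an unadjusted p under 0.05). The 3 collagen VI chains Col6a1, Col6a2 and Col6a3, which assemble into a microfibril around cells, rose by more than any other collagen except Col8a2. Col6a3 read 812 and 670.1 in the vinclozolin pair and 669.9 and 617.7 in the vehicle pair at E14, against 58.5 and 97.9 in the vinclozolin pair and 35.9 and 145.1 in the vehicle pair at E13. The lowest E14 array was thus well above the highest E13 array, and its log2 difference was 2.94 (SE 0.30, adjusted p = 0.00576), the largest rise among the named genes. Col6a2 read 502.9 and 359.4 in the vinclozolin pair and 483.1 and 384.6 in the vehicle pair at E14, against 86.6 and 67.4 in the vinclozolin pair and 68.5 and 93.9 in the vehicle pair at E13. Its difference was 2.23 (SE 0.17, adjusted p = 0.00217), which had the smallest adjusted p of all tested probe sets. Col6a1 read 551.7 and 373.1 in the vinclozolin pair and 501.2 and 413.5 in the vehicle pair at E14, against 94 and 139.2 in the vinclozolin pair and 88.7 and 121.8 in the vehicle pair at E13, and its difference was 1.91 (SE 0.19, adjusted p = 0.00494). In all 3 genes the vinclozolin and the vehicle arrays each separated the stages. This follows from all E14 arrays lying above all E13 arrays, so it is no separate result. The calls of these 3 genes held with any 1 of the 8 arrays left out. Over the next step, E16 minus E14, Col6a3 changed by 0.01 (SE 0.27), Col6a2 by 0.17 (SE 0.17) and Col6a1 by 0.3 (SE 0.17).

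The promoters of Col6a1 and Col6a3 are shown because their genes rose together. They run over 250 bases before and 50 bases after the annotated start in RefSeq's rat table (build GRCr8), at chr20:11905440-11905739 on the plus strand for Col6a1 and chr9:98886909-98887208 on the minus strand for Col6a3, and are written on the gene's strand, 5′ to 3′. The search covered 3 short motifs on both strands: AAGGTCA, the half-site bound by steroidogenic factor 1, ACAAT, a form of the core bound by SOX proteins, and GGGCGG, the GC box. Neither window holds any of the 3, so no letter is in capitals.
Col6a1: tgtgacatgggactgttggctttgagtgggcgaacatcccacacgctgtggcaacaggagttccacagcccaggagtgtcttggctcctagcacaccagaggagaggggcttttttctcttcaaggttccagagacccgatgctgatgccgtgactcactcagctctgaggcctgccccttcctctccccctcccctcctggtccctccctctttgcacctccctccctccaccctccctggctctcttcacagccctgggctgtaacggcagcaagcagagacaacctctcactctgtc
Col6a3: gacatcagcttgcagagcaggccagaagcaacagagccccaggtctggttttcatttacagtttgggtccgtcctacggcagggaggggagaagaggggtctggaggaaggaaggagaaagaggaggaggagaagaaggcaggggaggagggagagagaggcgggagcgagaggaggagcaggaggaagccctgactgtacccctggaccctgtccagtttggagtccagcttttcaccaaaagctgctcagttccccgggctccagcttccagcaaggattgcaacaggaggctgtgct
Among 33469 rat promoters of this length, 4.61% hold the AAGGTCA half-site, 33.7% hold ACAAT and 33.1% hold GGGCGG. The Col6a2 promoter was not analysed here.

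Col8a2 rose by an amount between those of the collagen VI chains, and the other collagens that rose did so by less. Col8a2, a short-chain collagen of basement membranes, read 1668.7 and 896.4 in the vinclozolin pair and 1476.9 and 1335.3 in the vehicle pair at E14, against 302.4 and 309.6 in the vinclozolin pair and 295.4 and 317.3 in the vehicle pair at E13. No E14 array came near the E13 arrays, which lay between 295.4 and 317.3, and the difference was 2.04 (SE 0.18, adjusted p = 0.00269). The fibrillar collagen I chains Col1a1 and Col1a2 rose by 1.19 (adjusted p = 0.00693) and 0.83 (adjusted p = 0.0081), and a second probe set of Col1a1 gave 1.36 (adjusted p = 0.0081). The basement membrane collagens also rose, Col4a2 by 1.11 (adjusted p = 0.0149), Col4a1 by 0.80 (adjusted p = 0.0237), Col18a1 by 0.90 (adjusted p = 0.0252) and Col15a1 by 0.71 (adjusted p = 0.0216). Col3a1, the other main fibrillar collagen of loose stroma, differed by 0.05 and did not pass the test (adjusted p = 0.764). The number of collagens that rose was 8 without both E13 arrays numbered 1, 13 without E14 vehicle replicate 1 and 6 without E13 vinclozolin replicate 2.

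Some basement membrane and matrix genes rose as well. Of 18 laminin and basement membrane genes 7 rose and 0 fell (median log2 difference 0.41; 1 fell at an unadjusted p under 0.05). Hspg2, which encodes the proteoglycan perlecan, averaged 453 ± 63.1 at E14 and 210 ± 15.8 at E13 (SD, n = 4 each) and rose by 1.04 (adjusted p = 0.0081). The laminin chains Lama4, Lamb2 and Lamc1 rose by 0.82, 0.62 and 0.50, while Lama1 differed by 0.29 without passing (adjusted p = 0.332). A second probe set of Lama4 gave 0.37 (adjusted p = 0.368). Of 31 other matrix genes 9 rose and 1 fell (median log2 difference 0.20). Mgp, a matrix protein that binds calcium, read 274.9 and 218.6 in the vinclozolin pair and 331.3 and 202.4 in the vehicle pair at E14, against 40.7 and 91.4 in the vinclozolin pair and 27.4 and 73.5 in the vehicle pair at E13. The arrays of the stages did not overlap, and the difference was 1.94 (SE 0.29, adjusted p = 0.00987). The elastic fibre genes Fbn1 and Emilin1 rose by 0.66 and 0.87 and the gelatinase Mmp2 by 0.93. The collagen-folding genes Plod1 and Serpinh1 rose by 0.91 and 0.52, although a second probe set of Serpinh1 gave 0.14 (adjusted p = 0.676). Postn, an adhesive protein of mesenchyme, was the exception and fell by 1.35 (SE 0.30, adjusted p = 0.02). Among 19 integrins and adhesion receptors 6 rose and 0 fell (median log2 difference 0.33; 1 fell at an unadjusted p under 0.05), among them the fibronectin receptor subunit Itga5 by 0.86 (adjusted p = 0.0117). Without both E13 arrays numbered 1, 3 laminin and basement membrane genes, 3 other matrix genes and 4 integrins or receptors rose, without E13 vinclozolin replicate 2 the counts were 1, 1 and 0, and without E14 vehicle replicate 1 they were 6, 7 and 6, with 2, 2 and 1 falls there.

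Sertoli cell genes rose by large amounts but unevenly. Of 20 tested Sertoli cell markers 7 rose and 1 fell (median log2 difference 0.83); Sox9 was not analysed here. Amh, which encodes anti-Mullerian hormone, read 5795.5 and 4892.5 in the vinclozolin pair and 1553.9 and 5697.9 in the vehicle pair at E14, against 372.4 and 1102.2 in the vinclozolin pair and 106 and 1484.7 in the vehicle pair at E13. The lowest E14 array, vehicle replicate 1, was only just above the highest E13 array, and the E13 arrays numbered 1 were far below those numbered 2. The difference was 2.91 (SE 0.69, adjusted p = 0.0236). Leaving out both E13 arrays numbered 1 reduced it to 1.63 (adjusted p = 0.0446), and the call was lost when either E13 vinclozolin array, E14 vehicle replicate 2 or E14 vinclozolin replicate 1 was left out, with values of 2.21 to 3.66 over the 8 arrays left out in turn. Dhh, the Sertoli cell hedgehog ligand, read 641.3 and 392 in the vinclozolin pair and 185.7 and 454.7 in the vehicle pair at E14, against 56.9 and 111.3 in the vinclozolin pair and 56.3 and 165.8 in the vehicle pair at E13. It again had its lowest E14 value on vehicle replicate 1, just above the highest E13 array, and rose by 1.93 (SE 0.39, adjusted p = 0.0153). Hsd17b3, which converts androstenedione to testosterone and is expressed by fetal Sertoli cells in mice, read 190 and 166.7 in the vinclozolin pair and 64.4 and 198 in the vehicle pair at E14, against 27.3 and 44.1 in the vinclozolin pair and 3 and 45.4 in the vehicle pair at E13. It rose by 1.93 (SE 0.38, adjusted p = 0.0152), with 1 E14 array, vehicle replicate 1, close to the E13 level.

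The promoters of Amh and Dhh are shown because both are Sertoli cell products that rose. They cover the same span around the start and come from the same table and build, at chr7:9559818-9560117 on the minus strand for Amh and chr7:131935303-131935602 on the minus strand for Dhh. Capitals mark the motif matches: 1 AAGGTCA half-site in Amh, whose first base lies at -84 from the start, and 4 GC boxes in Dhh at -66, -50, -28 and -21, of which the first is on the opposite strand.
Amh: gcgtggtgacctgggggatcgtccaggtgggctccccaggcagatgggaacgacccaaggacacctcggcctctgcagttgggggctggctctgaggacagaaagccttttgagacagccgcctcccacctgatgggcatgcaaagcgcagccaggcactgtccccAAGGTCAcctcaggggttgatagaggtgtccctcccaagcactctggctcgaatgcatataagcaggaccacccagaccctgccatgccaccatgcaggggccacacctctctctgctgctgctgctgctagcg
Dhh: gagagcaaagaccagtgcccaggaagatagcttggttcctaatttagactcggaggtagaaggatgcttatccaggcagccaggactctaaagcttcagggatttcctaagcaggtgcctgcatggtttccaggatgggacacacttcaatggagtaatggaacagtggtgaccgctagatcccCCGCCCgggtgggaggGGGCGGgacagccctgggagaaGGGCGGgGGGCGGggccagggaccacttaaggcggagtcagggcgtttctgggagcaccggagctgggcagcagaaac
Neither holds ACAAT on either strand, and the matches are letters in these windows only. Other forms of the SOX site were not searched.

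The other Sertoli cell markers that rose were Inha, the inhibin alpha subunit, by 1.36 (adjusted p = 0.0292), with overlapping arrays, the tight junction gene Cldn11 by 0.63 (adjusted p = 0.018), Aard by 1.16 (adjusted p = 0.0385) and the pantetheinase gene Vnn1 by 1.01 (adjusted p = 0.033). Kitlg, the ligand of the germ cell receptor Kit, moved the other way. It read 289.7 and 398.7 in the vinclozolin pair and 202 and 392.5 in the vehicle pair at E14, against 745.3 and 694.8 in the vinclozolin pair and 723.6 and 547.8 in the vehicle pair at E13, so every E14 array was below every E13 array, and it fell by 1.08 (SE 0.20, adjusted p = 0.0135). Other probe sets of Kitlg differed by -0.13 and -0.86 and did not pass (adjusted p = 0.86 and 0.085). Dmrt1, a transcription factor that maintains the Sertoli fate, and Fgf9, a growth factor that in mice sustains it, differed by 0.31 and 0.14 without passing (adjusted p = 0.469 and 0.681). The number of markers that rose was 4 without both E13 arrays numbered 1, 12 without E14 vehicle replicate 1 and 0 without E13 vinclozolin replicate 2, and the median difference of the list was 0.52 without both E13 arrays numbered 1. Inha was at 1.1 (adjusted p = 0.0976) there, and Dmrt1 at 0.67 (adjusted p = 0.0368) without E14 vehicle replicate 1.

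The hedgehog and PDGF pathways, through which Sertoli cells reach interstitial and peritubular cells, had members that rose at ligand, receptor and target. Of 11 tested genes 5 rose and 0 fell (median log2 difference 0.55; 1 fell at an unadjusted p under 0.05). Gli1, a transcriptional target of hedgehog signalling, read 314.5 and 261.6 in the vinclozolin pair and 270.7 and 291.1 in the vehicle pair at E14, against 83.7 and 95.2 in the vinclozolin pair and 50.5 and 170.9 in the vehicle pair at E13 and rose by 1.47 (SE 0.27, adjusted p = 0.0132). Pdgfra, the PDGF receptor of interstitial cells, read 1475.3 and 1502.6 in the vinclozolin pair and 1803.4 and 1652.3 in the vehicle pair at E14, against 791 and 831 in the vinclozolin pair and 832 and 753.5 in the vehicle pair at E13. Its E13 arrays lay within 753.5 to 832 and its E14 arrays within 1475.3 to 1803.4, and the rise of 0.99 (SE 0.11, adjusted p = 0.00576) held with any 1 array left out. The second receptor Pdgfrb and the ligand Pdgfa rose by 1.02 (adjusted p = 0.0106) and 0.74 (adjusted p = 0.0221). The number that rose was 5 without both E13 arrays numbered 1, 5 without E14 vehicle replicate 1 and 1 without E13 vinclozolin replicate 2. Of 16 interstitial and stromal markers 6 rose and 1 fell (median log2 difference 0.26): Pdgfra, Gli1, both collagen I chains, the adhesion molecule Vcam1 by 0.87 (adjusted p = 0.04) and the secreted ligand Wnt5a. Wnt5a read 179.9 and 137 in the vinclozolin pair and 250.1 and 195 in the vehicle pair at E14, against 67.3 and 74.2 in the vinclozolin pair and 66.3 and 41.8 in the vehicle pair at E13, with no overlap, and rose by 1.39 (SE 0.21, adjusted p = 0.0106). For these markers the counts of rises and falls were 4 and 0 without E13 vinclozolin replicate 2, 5 and 0 without both E13 arrays numbered 1 and 5 and 2 without E14 vehicle replicate 1. Their summed signal was 27025 to 31261 at E14, against 21301 to 22818 at E13.

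Smooth muscle genes, which peritubular cells also express, were mixed. Of 11 tested members 4 rose and 1 fell (median log2 difference 0.19). Smtn, an actin-binding protein of contractile cells, rose by 1.43 (adjusted p = 0.0165). Acta2, smooth muscle actin, read 508.2 and 412.7 in the vinclozolin pair and 418.8 and 410.5 in the vehicle pair at E14, against 217.9 and 210.1 in the vinclozolin pair and 270.6 and 220.2 in the vehicle pair at E13, and rose by 0.89 (adjusted p = 0.011). The myosin light chain kinase Mylk and the intermediate filament gene Des rose by 0.74 (adjusted p = 0.0117) and 0.72 (adjusted p = 0.0197), and the actin-binding Cald1 fell by 0.79 (adjusted p = 0.0197), although a second probe set of Cald1 gave -0.29 (adjusted p = 0.466). The summed signal of the list was 7891 to 9989 at E14, against 8241 to 9196 at E13, so as a whole it overlapped between the stages. For smooth muscle genes the counts of rises and falls were 0 and 0 without E13 vinclozolin replicate 2, 2 and 0 without both E13 arrays numbered 1 and 4 and 2 without E14 vehicle replicate 1. The median difference was 0.52 without both E13 arrays numbered 1.

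**Figure D3:**
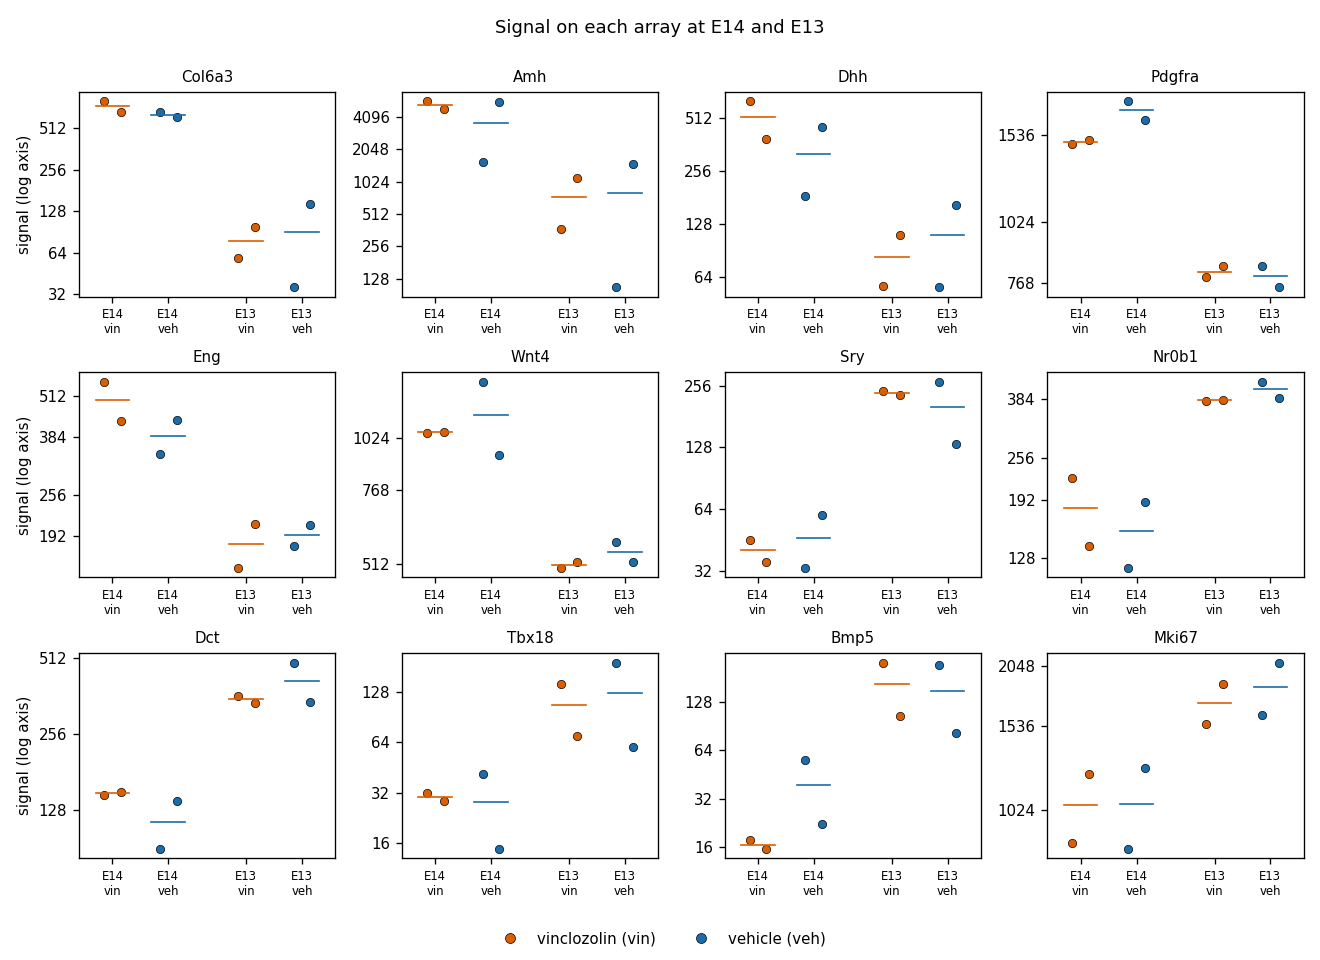
Signal of 12 genes on each array at E14 (left in each panel) and E13 (right), with vinclozolin (vin) and vehicle (veh) arrays apart; points are arrays, lines the mean of 2 arrays, and the axes are logarithmic. In all 12 panels the 4 E14 arrays do not overlap the 4 E13 arrays, and Col6a3 lies between 617.7 and 812 at E14 against 35.9 to 145.1 at E13.

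Endothelial genes rose in the largest share of any list. Of 24 tested endothelial markers 16 rose and 0 fell (median log2 difference 0.64; 0 fell at an unadjusted p under 0.05). Eng, an endothelial co-receptor for TGF-beta, read 564 and 428.1 in the vinclozolin pair and 340.1 and 431.4 in the vehicle pair at E14, against 153.8 and 209.5 in the vinclozolin pair and 179.6 and 207.2 in the vehicle pair at E13. Its stages did not overlap, it rose by 1.15 (SE 0.17, adjusted p = 0.0102), and the call held with any 1 array left out. The receptor tyrosine kinase Tie1 rose by 1.15 (adjusted p = 0.0114), the arterial connexin Gja4 by 1.15 (adjusted p = 0.0102), the apelin receptor Aplnr by 1.03 (adjusted p = 0.0132), the junction protein Esam by 0.94 (adjusted p = 0.011) and the adrenomedullin co-receptor Ramp2 by 0.93 (adjusted p = 0.0106). The remaining rises included the adhesion molecule Pecam1 by 0.55 (adjusted p = 0.0352) and the VEGF receptor Kdr by 0.38 (adjusted p = 0.0474), and the VEGF receptor Flt1 and the angiopoietin receptor Tek differed by 0.09 and 0.17 without passing. The number that rose was 9 without both E13 arrays numbered 1, 15 without E14 vehicle replicate 1 and 1 without E13 vinclozolin replicate 2. Leaving out each array in turn gave differences of 1.03 to 1.26 for Eng, 1.04 to 1.27 for Tie1 and 1 to 1.26 for Gja4. They were 0.87 to 1.18 for Aplnr, 0.87 to 1.04 for Esam and 0.8 to 1.02 for Ramp2. Pecam1 gave 0.47 to 0.61 and Kdr 0.34 to 0.44. These genes thus stayed higher at E14 in the fits where calls were lost. The summed signal of the 25 endothelial markers was 8603 to 11132 at E14, against 5480 to 6587 at E13, with no overlap. Notch genes, several of which act in arterial endothelium, gave 3 rises of 11: the receptor Notch1 by 0.89 (adjusted p = 0.0148), its ligand Dll4 by 0.81 (adjusted p = 0.0233) and the target Nrarp by 0.71 (adjusted p = 0.0246). The Notch rises numbered 0, 2 and 4 without E13 vinclozolin replicate 2, without both E13 arrays numbered 1 and without E14 vehicle replicate 1.

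Of 26 TGF-beta family genes 6 rose and 2 fell (median log2 difference 0.15). The ligand Tgfb1 read 425.7 and 252.9 in the vinclozolin pair and 228.6 and 272.3 in the vehicle pair at E14, against 150.8 and 92.6 in the vinclozolin pair and 114.9 and 81.6 in the vehicle pair at E13, and rose by 1.29 (SE 0.21, adjusted p = 0.011). The related Tgfb3 rose by 1.17 (adjusted p = 0.0119) and the signal transducer Smad3 by 0.60 (adjusted p = 0.019). Bmp5, a bone morphogenetic protein, was among the strongest falls of all genes. It read 17.6 and 15.6 in the vinclozolin pair and 55.6 and 22.2 in the vehicle pair at E14, against 223.7 and 104.3 in the vinclozolin pair and 216.8 and 81.3 in the vehicle pair at E13, and 3 of its 4 E14 arrays were below the 40th percentile of their array. It fell by 1.95 (SE 0.35, adjusted p = 0.0127). The type I receptor Tgfbr1 fell by 0.63 (adjusted p = 0.0272), although a second probe set gave 0.4 (adjusted p = 0.443), the opposite sign. For TGF-beta family genes the counts of rises and falls were 0 and 0 without E13 vinclozolin replicate 2, 3 and 1 without both E13 arrays numbered 1 and 6 and 3 without E14 vehicle replicate 1. The median was 0.36 without both E13 arrays numbered 1.

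The Wnt ligands Wnt5a, Wnt4 and Wnt6 rose. Of 22 Wnt pathway genes 4 rose and 1 fell (median log2 difference 0.33), with Wnt5a, Wnt4, Wnt6 by 1.03 (adjusted p = 0.032) and the receptor Fzd1 by 0.65 (adjusted p = 0.0171) on the rising side and the secreted inhibitor Wif1 at -0.47 (adjusted p = 0.0302). Wnt4, a ligand that promotes the ovarian fate in XX gonads, read 1052.4 and 1056.4 in the vinclozolin pair and 1392.6 and 932.4 in the vehicle pair at E14, against 499.7 and 515.8 in the vinclozolin pair and 576.7 and 517.4 in the vehicle pair at E13. The lowest E14 array, at 932.4, was above the highest E13 array, at 576.7, and it rose by 1.04 (SE 0.14, adjusted p = 0.00786). For the Wnt list the counts of rises and falls were 2 and 0 without E13 vinclozolin replicate 2, 5 and 0 without both E13 arrays numbered 1 and 5 and 3 without E14 vehicle replicate 1. Of 10 genes of ovary-type supporting cells 2 rose and 0 fell (median log2 difference 0.56; 0 fell at an unadjusted p under 0.05); the second was the transcription factor Runx1 by 0.57 (adjusted p = 0.0369), a call lost in 6 of the 8 fits that left out 1 array. Foxl2, the transcription factor that defines granulosa cells, read 49.2 and 117.3 in the vinclozolin pair and 32.5 and 33.8 in the vehicle pair at E14, against 42.2 and 4.3 in the vinclozolin pair and 5.6 and 59.7 in the vehicle pair at E13, and its difference of 0.86 (SE 0.47, adjusted p = 0.221) did not pass. Fst, which encodes the activin inhibitor follistatin, read 379.8 on E14 vinclozolin replicate 2 and 75.4 to 90.3 on the other E14 arrays, and did not pass either (difference 0.86 (adjusted p = 0.172)). Xist overlapped between the stages, as given above, beside these values.

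Among 30 FGF, VEGF and IGF pathway genes 5 rose and 0 fell (median log2 difference 0.28; 0 fell at an unadjusted p under 0.05). The largest were the IGF-binding protein genes Igfbp7 by 1.41 (adjusted p = 0.00888) and Igfbp4 by 1.00 (adjusted p = 0.0124), followed by the lymphatic and vascular growth factor Vegfd by 0.94 (adjusted p = 0.0153) and the receptors Fgfr1 by 0.70 (adjusted p = 0.017) and Fgfr3 by 0.66 (adjusted p = 0.0305). The rises in this list numbered 1, 3 and 5 without E13 vinclozolin replicate 2, without both E13 arrays numbered 1 and without E14 vehicle replicate 1. Of 14 retinoic acid genes 2 rose, the synthetic enzyme Aldh1a1 by 1.66 (adjusted p = 0.0136) and the receptor Rara by 0.80 (adjusted p = 0.0183). The called share was 14.3%, against 16.9% of all tested probe sets in either direction. Retinoic acid rises numbered 1, 2 and 3 without E13 vinclozolin replicate 2, without both E13 arrays numbered 1 and without E14 vehicle replicate 1. Aldh1a1 read 1679.7 and 1351.7 in the vinclozolin pair and 1266.3 and 1619.7 in the vehicle pair at E14, against 312.6 and 700.7 in the vinclozolin pair and 258.8 and 740.6 in the vehicle pair at E13. The stages did not overlap, and as with Amh the E13 arrays numbered 1 were the lower pair. Cyp26b1, which degrades retinoic acid and in mice keeps fetal male germ cells out of meiosis, read 3542.4 and 2914.6 in the vinclozolin pair and 1030 and 2877.4 in the vehicle pair at E14, against 917.7 and 1576 in the vinclozolin pair and 687.4 and 1852.9 in the vehicle pair at E13. E14 vehicle replicate 1 lay within the E13 range, and the difference of 1.00 (SE 0.38, adjusted p = 0.0904) did not pass, while a second probe set rose by 1.51 (adjusted p = 0.0191). Without E14 vehicle replicate 1 the first probe set gave 1.38 (adjusted p = 0.026).

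Further large rises, by the rule that took the 20 largest, were not on one list. Enpep, an aminopeptidase of vessels and tubules, rose by 1.97 (adjusted p = 0.0129), although a second probe set gave 0.45 (adjusted p = 0.122). Islr, a secreted protein of mesenchymal cells, averaged 1940 ± 255 at E14 and 606 ± 153 at E13 (SD, n = 4 each) and rose by 1.68 (adjusted p = 0.00576), and the elastic fibre protein gene Mfap4 rose by 1.59 (adjusted p = 0.00576). The transcription factor genes Tbx2 and Hic1 rose by 1.65 (adjusted p = 0.0102) and 1.58 (adjusted p = 0.0128), and the adrenergic receptor gene Adra2b by 1.64 (adjusted p = 0.0232), with 2 further probe sets at 1.52 and 1.58. Tsx, a testis-specific X-linked gene, read 499.7 and 384.2 in the vinclozolin pair and 236.8 and 523.1 in the vehicle pair at E14, against 62.4 and 228.4 in the vinclozolin pair and 51.8 and 175.4 in the vehicle pair at E13, and rose by 1.71 (SE 0.41, adjusted p = 0.0246). The rest of the 20 were Wfdc10a at 2.17, Mybphl at 1.84, Tent5c at 1.66 and Bpifb6 at 1.61.

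Sry itself fell over the same day. It read 45.1 and 35.2 in the vinclozolin pair and 32.9 and 59.6 in the vehicle pair at E14, against 241.9 and 231.3 in the vinclozolin pair and 267.9 and 133.3 in the vehicle pair at E13. All E14 arrays were below all E13 arrays, 2 of them below the 40th percentile of their array, and the fall of 1.97 (SE 0.24, adjusted p = 0.00786) held with any 1 array left out. The Y-linked genes Eif2s3y and Uty fell as well, as given above. Of 4 tested sex-chromosome genes 3 fell (75%), against 8.71% of all tested probe sets. The list had 2 falls without E13 vinclozolin replicate 2, without both E13 arrays numbered 1 or without E14 vehicle replicate 1. Whether the Sry fall shares a source with those of Eif2s3y and Uty was not tested. Of 21 tested transcription factors and regulators of gonad determination 0 rose and 4 fell (median log2 difference 0.09; 1 rose at an unadjusted p under 0.05). Beside Sry these were Nr0b1, a nuclear receptor that antagonises steroidogenic factor 1, and the homeobox genes Lhx9 and Emx2, which in mice are needed for the gonad to form. Nr0b1 read 223.3 and 139.4 in the vinclozolin pair and 119.7 and 188.8 in the vehicle pair at E14, against 380.7 and 382.6 in the vinclozolin pair and 433.9 and 388.5 in the vehicle pair at E13, and fell by 1.20 (SE 0.19, adjusted p = 0.0107). Lhx9 and Emx2 fell by 0.80 (adjusted p = 0.0297) and 0.60 (adjusted p = 0.0396); E14 vehicle replicate 1 was the lowest for Lhx9 at 616.7, and the Lhx9 call was lost in 5 of the 8 fits that left out 1 array. Of regulators present before sex is determined, Wt1 differed by -0.11, Gata4 by 0.55 and Nr5a1, which encodes steroidogenic factor 1, by 0.44, and none passed. Without E14 vehicle replicate 1, Gata4 was at 0.95 (adjusted p = 0.0164) and Nr5a1 at 0.77 (adjusted p = 0.0343). For the regulators the counts of rises and falls were 0 and 1 without E13 vinclozolin replicate 2, 1 and 2 without both E13 arrays numbered 1 and 3 and 4 without E14 vehicle replicate 1.

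Genes of the coelomic epithelium, the surface layer that gives rise to the first Sertoli cells in mice, moved both ways. Of 10 markers 2 rose and 3 fell (median log2 difference -0.08). Tbx18, a transcription factor of the coelomic lining, read 32.1 and 28.7 in the vinclozolin pair and 41.7 and 14.8 in the vehicle pair at E14, against 143.7 and 70.1 in the vinclozolin pair and 191.8 and 60.1 in the vehicle pair at E13. The stages did not overlap, 3 E14 arrays were below the 40th percentile, and the fall was 1.46 (SE 0.34, adjusted p = 0.0226). The difference was -0.87 (adjusted p = 0.091) without both E13 arrays numbered 1, which were the higher pair. The zinc finger gene Bnc1 fell by 0.82 (adjusted p = 0.0238) and Lrrn4 by 0.76 (adjusted p = 0.0168), while the keratin gene Krt7 rose by 1.27 (adjusted p = 0.00786) and Nkain4 by 0.87 (adjusted p = 0.0212). For the coelomic list the counts of rises and falls were 1 and 0 without E13 vinclozolin replicate 2, 1 and 0 without both E13 arrays numbered 1 and 2 and 3 without E14 vehicle replicate 1. For mesonephric and tubular epithelium 5 rose and 2 fell (median log2 difference 0.19) of 17, and the summed signal of its 25 markers was 7618 to 9406 at E14, against 7863 to 8601 at E13, with overlap. For the mesonephric list the counts of rises and falls were 1 and 0 without E13 vinclozolin replicate 2, 1 and 0 without both E13 arrays numbered 1 and 4 and 3 without E14 vehicle replicate 1. The adrenal list of 6 genes summed to 682 to 1554 at E14, against 777 to 1268 at E13, the highest value being E14 vehicle replicate 1.

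A minority of neural crest and neuronal genes fell. Of 18 tested members 0 rose and 4 fell (median log2 difference -0.32; 1 rose at an unadjusted p under 0.05). Dct, a melanin-synthesis enzyme of melanoblasts, read 147.7 and 151.1 in the vinclozolin pair and 90.1 and 139.7 in the vehicle pair at E14, against 361.6 and 340.5 in the vinclozolin pair and 490.1 and 342 in the vehicle pair at E13, and fell by 1.44 (SE 0.19, adjusted p = 0.00786). The neurofilament Nefm fell by 1.04 (adjusted p = 0.0137), the neuronal RNA-binding protein Elavl4 by 1.07 (adjusted p = 0.0256) and the neuronal tubulin regulator Stmn2 by 0.68 (adjusted p = 0.0449). The summed signal of the 22 markers was 1708 to 1918 at E14, against 2165 to 2569 at E13, with no overlap. For the neural list the counts of rises and falls were 0 and 1 without E13 vinclozolin replicate 2, 0 and 2 without both E13 arrays numbered 1 and 1 and 5 without E14 vehicle replicate 1. Sox10, the defining transcription factor of neural crest, differed by 0.13 and did not pass (adjusted p = 0.745).

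Afp, which encodes alpha-fetoprotein, was among the largest falls, in an order that is not exact because several of these genes reached background levels at E14. It read 29.9 and 32.6 in the vinclozolin pair and 36 and 33.8 in the vehicle pair at E14, against 477.7 and 115.2 in the vinclozolin pair and 96.3 and 260.5 in the vehicle pair at E13. The E13 arrays spread widely and all 4 E14 arrays were below the 40th percentile, and the fall was 2.11 (SE 0.40, adjusted p = 0.0136). Cga, the common subunit of the glycoprotein hormones, averaged 36.9 ± 7.93 at E14 and 183 ± 59.3 at E13 (SD, n = 4 each) and fell by 1.87 (adjusted p = 0.00786). Pkhd1l1, a large membrane receptor, averaged 38.8 ± 9.84 at E14 and 202 ± 44.3 at E13 (SD, n = 4 each) and fell by 1.98 (adjusted p = 0.00494). Shisa3, an inhibitor of Wnt and FGF signalling, averaged 261 ± 85.3 at E14 and 906 ± 233 at E13 (SD, n = 4 each) and fell by 1.75 (adjusted p = 0.00876). These falls were called with any 1 array left out. The transcription factor gene Foxp2 and the chloride channel family gene Ano5 also fell in each of those fits, by 1.41 and 1.54. The Ano5 difference was -0.74 under a pseudocount of 64 and -0.48 when dim values were set to the 40th percentile. Nup62cl fell by 1.98 (adjusted p = 0.0117), with a second probe set at -2.36 (adjusted p = 0.0128), and Cpm, a carboxypeptidase, by 1.34 (adjusted p = 0.00786), while a second probe set of Cpm gave -0.36 (adjusted p = 0.169). The remaining large falls, between -1.66 and -1.31, were Stxbp6, Acss3, Sh3bgrl1, Smc5, LOC102556108, Zdbf2 and Hook1, beside Tbx18, Dct and Postn.

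Proliferation genes moved both ways, with more called falls than rises. Of 39 cell cycle and replication genes 2 rose and 7 fell (median log2 difference -0.03). Of all tested probe sets 8.23% rose and 8.71% fell. At an unadjusted p under 0.05 (limma) 6 of the 39 genes were higher and 8 lower. Mki67, the Ki-67 antigen of cycling cells, read 870.2 and 1218.6 in the vinclozolin pair and 846.1 and 1254.9 in the vehicle pair at E14, against 1552.4 and 1885.5 in the vinclozolin pair and 1621.7 and 2087.9 in the vehicle pair at E13. The stages did not overlap, and the fall was 0.77 (SE 0.17, adjusted p = 0.0181). Cyclin E2, Ccne2, fell by 0.99 (adjusted p = 0.0118), although a second probe set gave -0.01 (adjusted p = 0.99), and the mitotic genes Bub1 and Kif11 by 0.85 (adjusted p = 0.0277) and 0.70 (adjusted p = 0.0168). The cyclin Ccnd3 rose by 0.62 (adjusted p = 0.0148). For cell cycle genes the counts of rises and falls were 0 and 0 without E13 vinclozolin replicate 2, 3 and 6 without both E13 arrays numbered 1 and 3 and 5 without E14 vehicle replicate 1. Of 34 chromatin genes 1 rose and 4 fell (median log2 difference 0.12): the Polycomb genes Ezh2 and Suz12 fell by 0.53 (adjusted p = 0.024) and 0.96 (adjusted p = 0.0331), the histone acetyltransferase Hat1 by 0.51 (adjusted p = 0.0283) and the DNA demethylase Tet1 by 0.70 (adjusted p = 0.038), while the histone methyltransferase Ehmt2 rose by 0.82 (adjusted p = 0.0106). The called share of 14.7% lay below the 16.9% of all tested probe sets called in either direction. For chromatin genes the counts of rises and falls were 0 and 0 without E13 vinclozolin replicate 2, 4 and 1 without both E13 arrays numbered 1 and 1 and 3 without E14 vehicle replicate 1.

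In energy metabolism, glycolysis and hypoxia genes moved both ways. Of 25 glycolysis and hypoxia genes 2 rose and 4 fell (median log2 difference -0.02), while 8.23% of all tested probe sets rose and 8.71% fell. At an unadjusted p under 0.05 (limma) 6 of the 25 were higher and 6 lower. The lactate exporter Slc16a3 fell by 1.20 (adjusted p = 0.00888), the hypoxia target Bnip3 by 0.76 (adjusted p = 0.0129) and lactate dehydrogenase Ldha by 0.55 (adjusted p = 0.0168), while Hk1 rose by 0.70 (adjusted p = 0.038). For this list the counts of rises and falls were 0 and 1 without E13 vinclozolin replicate 2, 0 and 3 without both E13 arrays numbered 1 and 1 and 5 without E14 vehicle replicate 1. The 56 genes of the respiratory chain gave 1 rise and 5 falls (median log2 difference -0.07), and of 34 ribosomal protein genes 0 rose and 1 fell (median log2 difference -0.12; 0 rose at an unadjusted p under 0.05). The respiratory and ribosomal shares lie near or below the 8.23% and 8.71% of all tested probe sets. Respiratory falls numbered 0, 3 and 3 without E13 vinclozolin replicate 2, without both E13 arrays numbered 1 and without E14 vehicle replicate 1. Immediate early genes gave 5 rises of 17 (median log2 difference 0.46), among them Klf4 by 0.97 (adjusted p = 0.0129) and Myc by 0.79 (adjusted p = 0.0193), with 2 rises without E14 vehicle replicate 1, the array with the highest Fos, and 0 without E13 vinclozolin replicate 2. Of 24 xenobiotic and oxidative defence genes 4 rose and 2 fell (median log2 difference 0.16), led by the glutathione transferase Gstm2 at 1.44 (adjusted p = 0.0196) and the extracellular superoxide dismutase Sod3 at 1.12 (adjusted p = 0.0231). For defence genes the counts of rises and falls were 0 and 0 without E13 vinclozolin replicate 2, 1 and 0 without both E13 arrays numbered 1 and 4 and 1 without E14 vehicle replicate 1. The counts of the other lists were 5 up and 1 down of 20 heat shock genes, 3 up and 1 down of 18 cholesterol synthesis genes, 3 up of 15 interferon and MHC genes, 3 down of 32 homeobox genes, 1 down of 15 imprinted genes and 1 up of 9 steroid receptor genes. Without E13 vinclozolin replicate 2 these lists had 1 rise, among the interferon and MHC genes, and 0 falls. Called shares were 9.38% for homeobox, 6.67% for imprinted and 11.1% for steroid receptor genes, below the 16.9% of all tested probe sets. Homeobox falls numbered 0 without both E13 arrays numbered 1 and 7 without E14 vehicle replicate 1.

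Fetal Leydig cell, germ cell and blood cell genes had 1 call or none per list on this day with all 8 arrays. All these calls were rises. The shares were 9.09% for Leydig cell, 11.1% for germ cell, 7.14% for erythroid and 0% for macrophage genes. Of all tested probe sets 8.23% rose, so the first 3 shares lie near that rate. The median log2 differences were 0.47 for germ cell, 0.37 for erythroid and 0.39 for macrophage genes, against 0.073 for all tested probe sets. Of 11 tested genes of fetal Leydig cells and steroidogenesis 1 rose and 0 fell (median log2 difference 0.44; 0 fell at an unadjusted p under 0.05), the 1 being the lipoprotein receptor Scarb1 at 0.74 (adjusted p = 0.0321). For these genes the counts of rises and falls were 0 and 0 without E13 vinclozolin replicate 2, 0 and 0 without both E13 arrays numbered 1 and 4 and 0 without E14 vehicle replicate 1. Cyp11a1, the side-chain cleavage enzyme that starts steroid synthesis, was under the filter and was not tested; it read 38.9 and 33.5 in the vinclozolin pair and 67 and 34.1 in the vehicle pair at E14, against 23.3 and 26.6 in the vinclozolin pair and 24.6 and 19.6 in the vehicle pair at E13. All 4 E14 arrays were above all 4 E13 arrays, but at a level where 2 of the E14 arrays and all E13 arrays were below the 40th percentile. Cyp17a1, which makes androgens, and the Leydig cell hormone gene Insl3 were below the 40th percentile on all 8 arrays. Star, the cholesterol transporter of steroid-making cells, averaged 73.4 ± 19.8 at E14 and 90 ± 12 at E13 (SD, n = 4 each) and did not pass (difference -0.26 (adjusted p = 0.298)), and Hsd3b1, a steroid dehydrogenase, differed by 0.90 (adjusted p = 0.115). Of 9 germ cell genes 1, the receptor Kit, rose, by 0.73 (adjusted p = 0.0468), and without E14 vehicle replicate 1, where the germ cell sum was lowest, 5 did; 0 did without E13 vinclozolin replicate 2. Of 16 macrophage genes limma called 0, with 2 higher and 0 lower at an unadjusted p under 0.05; 1 rose without E14 vinclozolin replicate 1. Of 14 erythroid genes 1, the band 3 gene Slc4a1, rose, by 1.5 (adjusted p = 0.039) with overlapping arrays, and 0 passed without E14 vehicle replicate 1, which had the highest erythroid sum at 53394 against 28825 to 34775 on the other E14 arrays.

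The treatments were then set against each other. No array is shared between the E14 minus E13 difference on vinclozolin arrays and that on vehicle arrays, but same-numbered E13 arrays of the treatments deviated together (0.68), so the differences are not fully separate. With 2 arrays per group, limma called 0 probe sets within vinclozolin (smallest adjusted p = 0.0525; 26.9% at an unadjusted p under 0.05) and 0 within vehicle (smallest adjusted p = 0.132; 15% at an unadjusted p under 0.05). Across the 18921 tested probe sets the differences correlated between the treatments at a Pearson r of 0.641 and a Spearman rho of 0.64, a description over probe sets that are not independent of each other. Probe sets were also chosen on one treatment at an unadjusted p under 0.01 and read on the other. Of 972 that were higher at E14 on the vinclozolin arrays, 938 (96.5%) were higher on the vehicle arrays, and of 1104 that were lower, 1055 (95.6%) were lower. Of 350 that were higher at E14 on the vehicle arrays, 340 (97.1%) were higher on the vinclozolin arrays, and of 352 that were lower, 348 (98.9%) were lower. Over all tested probe sets, 76.2% of those higher on the vehicle arrays were higher on the vinclozolin arrays too, and 73.5% of those lower were lower.

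The vinclozolin arrays had the wider spread of differences. The standard deviation of the differences over probe sets was 0.534 on the vinclozolin arrays and 0.447 on the vehicle arrays. Probe sets chosen on the vinclozolin arrays had median changes of 0.90 for the rises and 0.96 for the falls there, and 0.49 and 0.54 on the vehicle arrays. Those chosen on the vehicle arrays changed on the vinclozolin arrays by 0.81 and 0.95, and by 0.99 and 0.87 on the vehicle arrays. Among the 3206 probe sets called with both treatments pooled, which that choice bears on, 75.5% had the larger change on the vinclozolin arrays. E14 vehicle replicate 1, with its low Sertoli and germ cell sums, is 1 of the 2 E14 vehicle arrays, and its part in the smaller vehicle changes was not tested. For the Sertoli cell list the median difference was 1.05 on the vinclozolin arrays and 0.57 on the vehicle arrays.

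**Figure D4:**
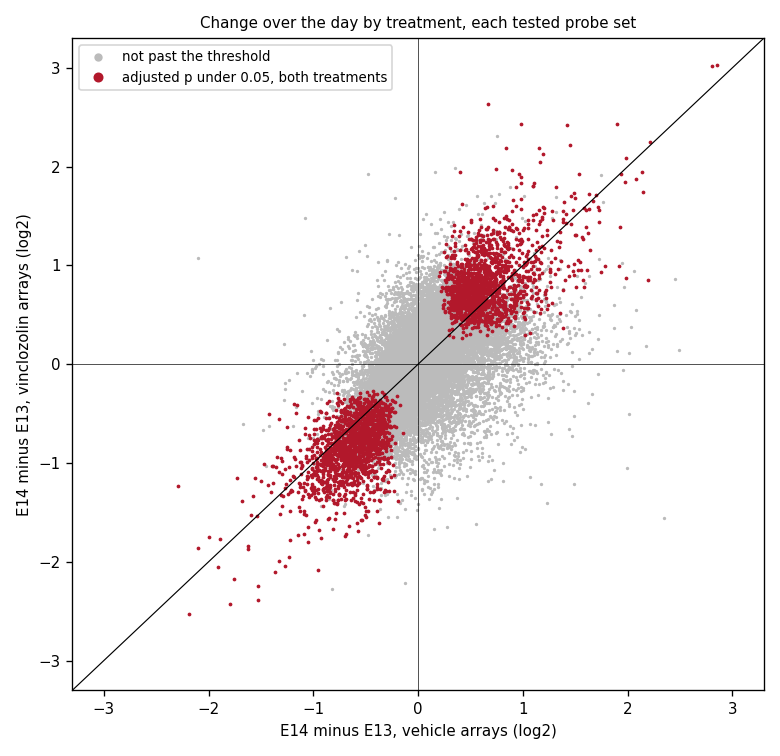
Log2 difference between E14 and E13 on the vinclozolin arrays (vertical) and on the vehicle arrays (horizontal) for each of 18921 tested probe sets, with those called over both treatments in red and the line of equal change in black. The cloud runs along the line (Pearson r 0.641), and every called probe set has the same sign in both treatments, which their choice on the pooled difference largely fixes.

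No difference between the treatments passed its own test. The stage by treatment interaction called 0 probe sets (limma, smallest adjusted p = 0.998), with 546 (2.89%) at an unadjusted p under 0.05 and a median SE of 0.36, against a median change of 0.69 among the called rises. The probe set with the smallest interaction p among those with a gene name was RT1-Bb, an MHC class II chain. It read 213.3 and 147.7 in the vinclozolin pair and 8.9 and 5.8 in the vehicle pair at E14, against 53.2 and 53.6 in the vinclozolin pair and 30.9 and 35.7 in the vehicle pair at E13. The vinclozolin arrays were above the vehicle arrays at both stages, by more at E14, and the interaction was 2.56 (SE 0.38, unadjusted p = 7.98e-05, adjusted p = 0.998). Prss35, a serine protease-like gene, read 595 and 342.8 in the vinclozolin pair and 1165.9 and 1719.2 in the vehicle pair at E14, against 1717.2 and 1257.4 in the vinclozolin pair and 1376.7 and 1174 in the vehicle pair at E13. It was lower on both E14 vinclozolin arrays than on every other array, and its interaction was -1.82 (SE 0.41, unadjusted p = 0.00173, adjusted p = 0.998). The other 8 genes that the interaction rule named, 4 in each direction, had unadjusted p of 0.00137 to 0.01.

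The first day was last compared with the following step, E16 against E14. The 2 steps share the E14 arrays, so only the test of the difference between them is given, beside each step's own values. Of 19810 probe sets tested on the 12 in utero arrays, 22.2% had a higher signed difference in the first step than in the second and 16.8% a lower one. All 4 E14 arrays were above all 8 E13 and E16 arrays for 1597 of 18921 probe sets (8.44%) and below them for 1573 (8.31%), against 478 above and 478 below (2.53% each) for the E13 arrays, the first stage, and 1181 (6.24%) and 1493 (7.89%) for the E16 arrays.

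Most endothelial and collagen genes had the higher signed difference in the first step, and a higher one can also come from a fall in the second. Of 24 endothelial genes 17 had the higher difference in the first step and 0 the lower, with median differences of 0.64 in the first step and -0.65 in the second, and of 25 collagens 18 had the higher and 0 the lower, with medians of 0.74 and -0.60. Other matrix genes were split, with 8 of 33 higher and 9 lower in the first step. Tie1 averaged 118 at E13, 279 at E14 and 120 at E16, and its first step exceeded its second by 2.26 (adjusted p = 0.000217). Wnt4 averaged 527 at E13, 1110 at E14 and 547 at E16, Tgfb1 110 at E13, 295 at E14 and 119 at E16, and the semaphorin receptor Plxnd1 193 at E13, 506 at E14 and 125 at E16, the last with a difference between steps of 3.17 (adjusted p = 5.93e-05). Of the 3 stages these 4 genes had their highest mean at E14. Col8a2 averaged 306 at E13, 1340 at E14 and 769 at E16, and Amh 766 at E13, 4480 at E14 and 2060 at E16. Among the collagen VI chains Col6a3 averaged 84.4 at E13, 692 at E14 and 699 at E16, with a difference between steps of 2.93 (adjusted p = 0.000597).

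Many steroidogenic, ribosomal and respiratory genes had the higher difference in the second step. Of 15 Leydig cell and steroidogenesis genes on the 12 arrays, 2 had the higher and 8 the lower difference in the first step, with medians of 0.44 and 1.44. Cyp11a1 averaged 23.5 at E13, 43.4 at E14 and 2270 at E16, and Cyp17a1 10.8 at E13, 18 at E14 and 5810 at E16. Of 35 ribosomal protein genes 0 had the higher and 20 the lower difference in the first step, and of 56 respiratory chain genes 1 and 27, with first-step medians of -0.12 and -0.07 and second-step medians of 0.37 and 0.39. Mgp averaged 58.2 at E13, 257 at E14 and 3010 at E16 and rose in both steps, by less in the first. Some falls of the first day were not kept: Afp averaged 237 at E13, 33.1 at E14 and 595 at E16, Eif2s3y 2760 at E13, 1120 at E14 and 2970 at E16, Smc5 770 at E13, 296 at E14 and 699 at E16 and Rbis, a ribosome biogenesis factor, 1760 at E13, 930 at E14 and 2930 at E16. Sry, Tbx18 and Bmp5 stayed low, with E16 means of 9.62, 12.7 and 17.1.

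**Figure D5:**
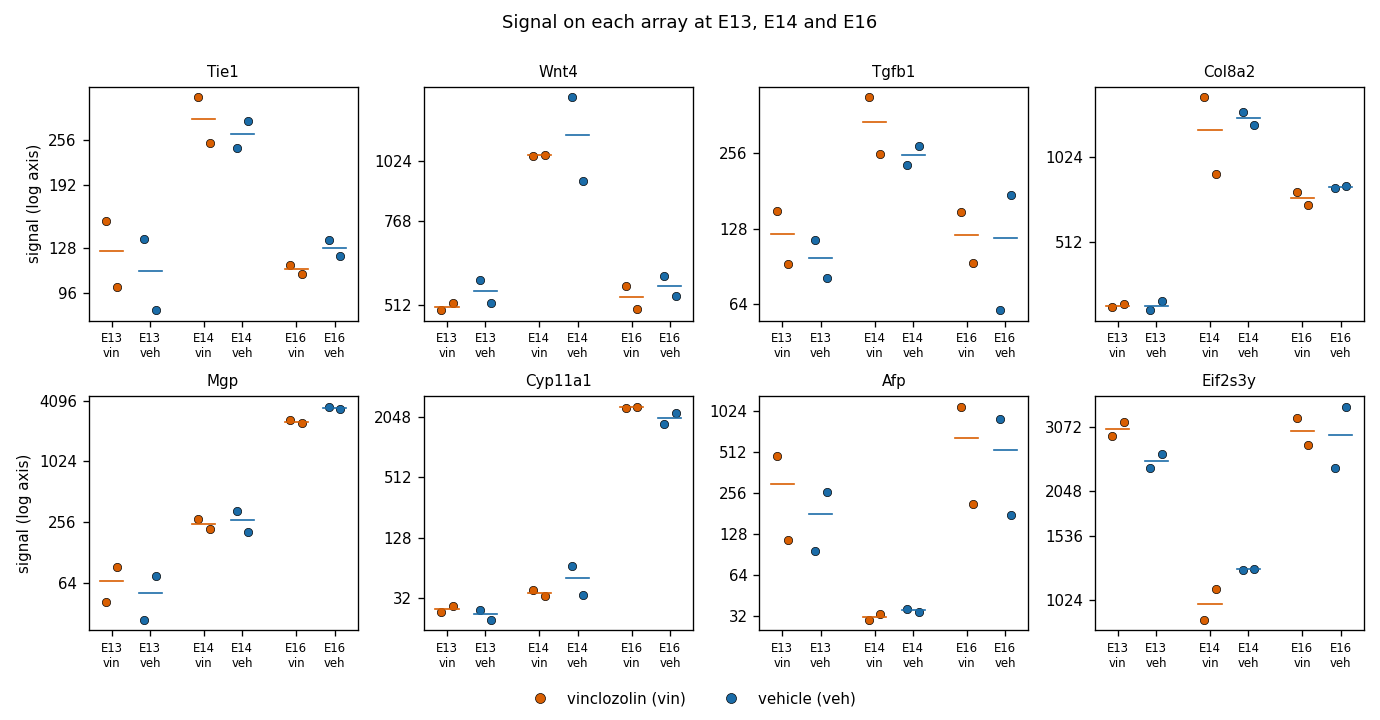
Signal of 8 genes on each array at E13, E14 and E16, with vinclozolin (vin) and vehicle (veh) arrays apart; points are arrays, lines the mean of 2 arrays, and the axes are logarithmic. Tie1, Wnt4 and Tgfb1 are highest at E14, Mgp and Cyp11a1 at E16 (means 3010 and 2270), and Afp and Eif2s3y are lowest at E14 (means 33.1 and 1120).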

How the data were processed

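Per the labels, RNA of testes was hybridised to Affymetrix rat arrays. The deposited values are MAS5 signal intensities, per the submitters' processing notes, which also name GCOS, in both cases with no version. The E14 and E13 arrays share a trimmed mean of 210.1 (2% cut at each end), so they were compared without further scaling. The E16 arrays were not scaled further either, and their trimmed mean is not given here. All 8 E14 and E13 arrays were used, with groups taken from the labels. Values were tested as log2(signal + 16) with limma 3.58.1 (R 4.3.3, lmFit and eBayes with trend, two-sided), with treatment as a covariate; 4 group means gave the tests within a treatment and the interaction, and the 12 in utero arrays the difference between steps. The authors' deposited values carry no background estimate per probe set, so precision is limited by the number of arrays. Of 31042 probe sets without controls, 18921 were tested; 14343 of them had 1 symbol, 330 several and 4248 none, from the platform annotation updated through RefSeq. A gene was read from its probe set of highest mean. Other tested probe sets are given for some genes only. Among those not given, probe sets of Kif11, Lrrn4, Stxbp6, Mylk, Aplnr, Nrarp and Runx1 did not pass. Statistical code was tested on simulated data. The members and gene lists were chosen with earlier results of these data known. Genes were named by a rule: the 20 largest non-overlapping rises and falls, a fixed set led by Sry and Amh, up to 6 members of smallest p per list, and the 5 of smallest p in each direction for the interaction and for the difference between steps. Aard, Vnn1, Vcam1, Col3a1, Col4a1, Col4a2, Col15a1, Col18a1, Lama1, Dmrt1, Fgf9, Pecam1, Kdr, Flt1, Tek, Wt1, Gata4, Nr5a1 and Sox10 were named after their values were seen. Alternatives covered scaling, pseudocount, filter, arrays, covariates and each array left out. Replicate numbers were checked as pairs: deviations of same-numbered arrays correlated at 0.68 between the E13 groups and at -0.22 to 0.12 between other groups. E13 arrays of one number thus went together across treatments, but the numbers do not pair E14 with E13. The labels give no slide, scan or litter.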

Additional observations from a re-analysis of the deposited data

Results flagged for a closer look

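An array was singled out where it lay far from the other 3 of its stage (a gap to the nearest array, as a share of the range on the log2 scale, above Dixon's critical value); chance alone does so for about 1 in 20 groups, and 22 of the 310 groups examined met the rule. E14 vehicle replicate 1 was the array in 9 of them. On it Amh read 1554, Hsd17b3 64.4, Aard 1342, Cyp26b1 1030, Lhx9 616.7, Lama4 590.1 and Dct 90.1, all below the other E14 arrays, whose lowest values were 4892.5, 166.7, 3381.7, 2877.4, 1117, 821 and 139.7. Col1a1 at 5173 and Nkain4 at 353.2 were above the other E14 arrays there, at up to 4126.5 and 221.4.

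Among the other E14 arrays, vinclozolin replicate 1 was high for Acta2 at 508.2 and low for Uty at 296.1, and vinclozolin replicate 2 was high for Fst at 379.8 and low for Serpinh1 at 3365. Vehicle replicate 2 was low for Runx1 at 206.4 and high for Hat1 at 2097. Of the E13 arrays, vehicle replicate 2 was high for Col4a1 at 1134, Fgfr1 at 643.7, Serpinh1 at 3002 and Smtn at 237.2. Vehicle replicate 1 was high for Dct at 490.1 and Nr0b1 at 433.9, and vinclozolin replicate 2 was low for Mfap4 at 375.7.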

How the results depend on the processing

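No call of a named gene reversed its direction under any of 22 settings, while 6 uncalled genes near 0 (Col3a1, Fgf9, Flt1, RT1-Bb, Sox10 and Xist) changed sign under 1 to 7 of them. Of 3335 values 2883 stayed on their side of the threshold, 440 lost the call and 12 gained one. Counts of probe sets moved more. For E14 against E13 with both treatments, against 1558 higher and 1648 lower, 943 were higher with no filter on dim values, 2987 and 2726 changed with all 20 arrays in the fit, 956 and 634 without both E13 arrays numbered 1, and 281 and 401 without both E14 arrays numbered 1. Leaving out 1 array gave 57 to 1486 higher and 55 to 1642 lower, with 57 and 55 without E13 vinclozolin replicate 2, 692 and 824 without E13 vehicle replicate 1, 671 and 710 without E13 vinclozolin replicate 1, 511 and 732 without E14 vehicle replicate 2, and 543 and 823 without E14 vinclozolin replicate 1; the cause was not tested. Within vinclozolin, where 0 were called, quantile scaling gave 562, a pseudocount of 64 gave 365, a filter at the median 582, the 12 in utero arrays 2262, all 20 arrays 3890, values raised to the 40th percentile 304, and 1 array left out 0 to 1687 (1687 without E14 vinclozolin replicate 2). Within vehicle, where 0 were called, the 12 in utero arrays gave 15, all 20 arrays 724, leaving out both E13 arrays numbered 1 gave 25, and 1 array left out 0 to 1. The interaction stayed at 0 in every setting run. The difference between steps gave 3385 to 4307 and 2615 to 3398 with 1 array left out. With the replicate number as a block, 1692 were higher and 1720 lower, and 349 were called within vinclozolin; same-numbered E13 arrays went together across treatments (0.68), but the numbers do not pair E14 with E13.

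With 2 arrays per group the within-treatment and interaction tests are weakly powered, and their counts of 0 do not show that the treatments act alike. Values below the 40th percentile of an array are near background, so falls to that level have no exact size. Age, litter and array handling cannot be told apart here, since the labels name no litter, and whole-tissue signals mix cell types.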
